A study of Homo sapiens with 6 samples.

Results

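The genes described here are 35 genes of the unfolded protein response and of protein folding and degradation in the endoplasmic reticulum (ER), out of 62754 gene rows in each deposited table. They were taken by symbol, and each symbol matched 1 row in every table. The study knocked down MEN1, which encodes menin, a subunit of the MLL1 histone methyltransferase complex, in a human erythroid precursor line made by immortalisation, HUDEP-2. One group of 3 libraries came from cells given a lentiviral shRNA against MEN1 (MEN1sh2), and the other group of 3 came from cells given a non-targeting shRNA (Controlsh), labelled WT. Cells of both groups were kept in StemSpan SFEM with EPO at 3 units per ml, SCF at 50 ng per ml, dexamethasone and doxycycline at 1 µg per ml. Both were exposed to puromycin at 2 µg per ml for 48 h, beginning 24 h after infection, and the RNA is from 72 h after transduction. A single hairpin and a single cell line stand for menin loss, so hairpin-specific effects cannot be told apart from it. The labels call the replicates biological but do not say whether they were separate cultures, so the p-values measure the spread between these libraries.

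Proteins that enter the ER are folded by chaperones such as HSPA5 (BiP), HSP90B1, calreticulin and calnexin, and their disulfide bonds are made by protein disulfide isomerases recharged by ERO1 oxidases. When unfolded protein accumulates, 3 sensors respond: IRE1 (ERN1) splices the XBP1 transcript, ATF6 is cut by the proteases MBTPS1 and MBTPS2 to release a transcription factor, and PERK (EIF2AK3) phosphorylates eIF2alpha and raises ATF4. XBP1 and ATF6 then raise transcription of chaperones and of ER-associated degradation (ERAD), which draws misfolded proteins back to the cytosol for the proteasome. Erythroid precursors secrete little protein, but they make large amounts of membrane glycoproteins through the ER while their organelles are being lost.

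Expression is given in TPM, an abundance scaled for gene length and library size that can be compared between genes. Totals of aligned bases inferred from the deposited coverage were 5.565e+09 to 1.081e+10 per library, and 13865 to 14361 genes per library reached 1 TPM. MEN1 itself was at 6.29, 6.44 and 6.88 TPM with its shRNA and at 41.2, 39.6 and 37.1 TPM in the controls, a log2 fold change of -2.42 (SE 0.0803, adjusted p 8.5e-06 in limma). On the first principal component MEN1 shRNA replicate 1 lay nearer to the controls than replicates 2 and 3 did, at 29.97 against 46.14 and 46.86. All 12 erythroid markers examined were expressed, with a summed level of 98480 to 110639 TPM after MEN1 knockdown and 56775 to 62901 TPM in the controls. Most of that sum was HBB, HBA1 and HBA2. KLF1 overlapped between the groups, at 544, 531 and 525 TPM against 594, 542 and 524 TPM. GATA1 was only slightly higher, at 291, 290 and 286 TPM against 280, 281 and 270 TPM. The other markers were higher in every knockdown library than in every control. The rise in the sum moves with every difference given below, and its part in the ER genes was not tested. Bulk libraries also cannot tell fewer cells of a kind from less RNA per cell.

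Markers of other blood cells were measured as well. The 12 plasma and B cell markers summed to 0.728 to 1.33 TPM with the MEN1 shRNA and to 1.2 to 1.6 TPM in the controls, and CD79B, MS4A1, JCHAIN and POU2AF1 were listed at 0 in all 6 libraries. The 8 mast cell and basophil markers summed to 816 to 1000 TPM against 1201 to 1489 TPM. These sums came mostly from TPSAB1, TPSB2 and GATA2, while FCER1A reached at most 0.0146 TPM and CPA3 at most 0.835 TPM. HPGDS of the same list was at 35, 38.7 and 41 TPM after knockdown and 9.17, 13.7 and 9.33 TPM in the controls. The 8 megakaryocyte markers summed to 17.1 to 21.6 TPM against 31.9 to 36.7 TPM, nearly all from ITGA2B, with PF4 and PPBP at 0. The monocyte and macrophage markers summed to 17.7 to 23.9 TPM against 12.3 to 14.7 TPM, mostly CD68, with MARCO and S100A8 at 0, and the stem and early progenitor markers to 5.54 to 8.16 TPM against 5.75 to 7.45 TPM, with SPINK2 at 0.

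Menin knockdown split the ER genes. The ERAD membrane protein HERPUD1 rose 4.09-fold and the BiP co-chaperone DNAJB9 rose 2.51-fold, and calreticulin, the most abundant of the 35 transcripts, rose 1.33-fold. Calnexin, BiP, HSP90B1 and 4 of the disulfide enzymes fell, as did the luminal proteins SDF2L1 and MANF and the derlin DERL3. The transcripts of the sensors ERN1 and ATF6 and of the transcription factor XBP1 did not pass the test. Of the 35 genes, 34 reached 1 TPM in at least 3 libraries and were tested, and limma called 18 at a threshold of 0.05 on the adjusted p, of which 7 rose and 11 fell. Across all 14294 genes tested the share past this threshold was 53.6%, with 22.1% higher and 31.5% lower, so a count of 18 in 34 lies near the background and is no property of these genes. Their median log2 fold change was -0.003, against -0.07 over all genes tested. At least 2-fold changes were found in 3 of them, HERPUD1, DNAJB9 and DERL3, against 11.9% of all genes. The groups did not overlap in 20 of the 34, 8 with the knockdown libraries above and 12 with them below, against 61.8% of all genes.

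The split between rises and falls depended on the scaling of the libraries. With median-of-ratios scaling, which centres the median of all genes, 12 rose and 7 fell. With TPM rescaled without globin and mitochondrial transcripts 10 rose and 7 fell, and with quantile normalization 12 rose and 9 fell. All genes tested shifted as well. The higher share of their calls was 41.2% in the main fit and 49.5%, 47.2% and 49.1% in these settings, in the same order. Later counts with median-of-ratios scaling are to be read beside that 49.5%. Without MEN1 shRNA replicate 1 the counts were 9 higher and 12 lower, 21 in all, with 17 of the 18 calls kept, and without control replicate 2 they were 5 higher and 7 lower, 12 in all. Of the 18 calls, DNAJB9, SDF2L1 and HERPUD1 held in each of 17 alternative analyses and DERL3 in each of the 16 that tested it, since it was below a filter on a mean TPM of 5, and MBTPS2, CALR, CANX, PDIA3, PDIA4, PDIA6, VCP and ERO1A were lost only in a test against a log2 fold change of 0.5. The calls for HSPA5, HSP90B1, MANF, DERL1, DERL2 and EDEM3 were lost in other alternatives as well, those for HSPA5 and EDEM3 in 12 of 17 each.

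**Figure D1:**
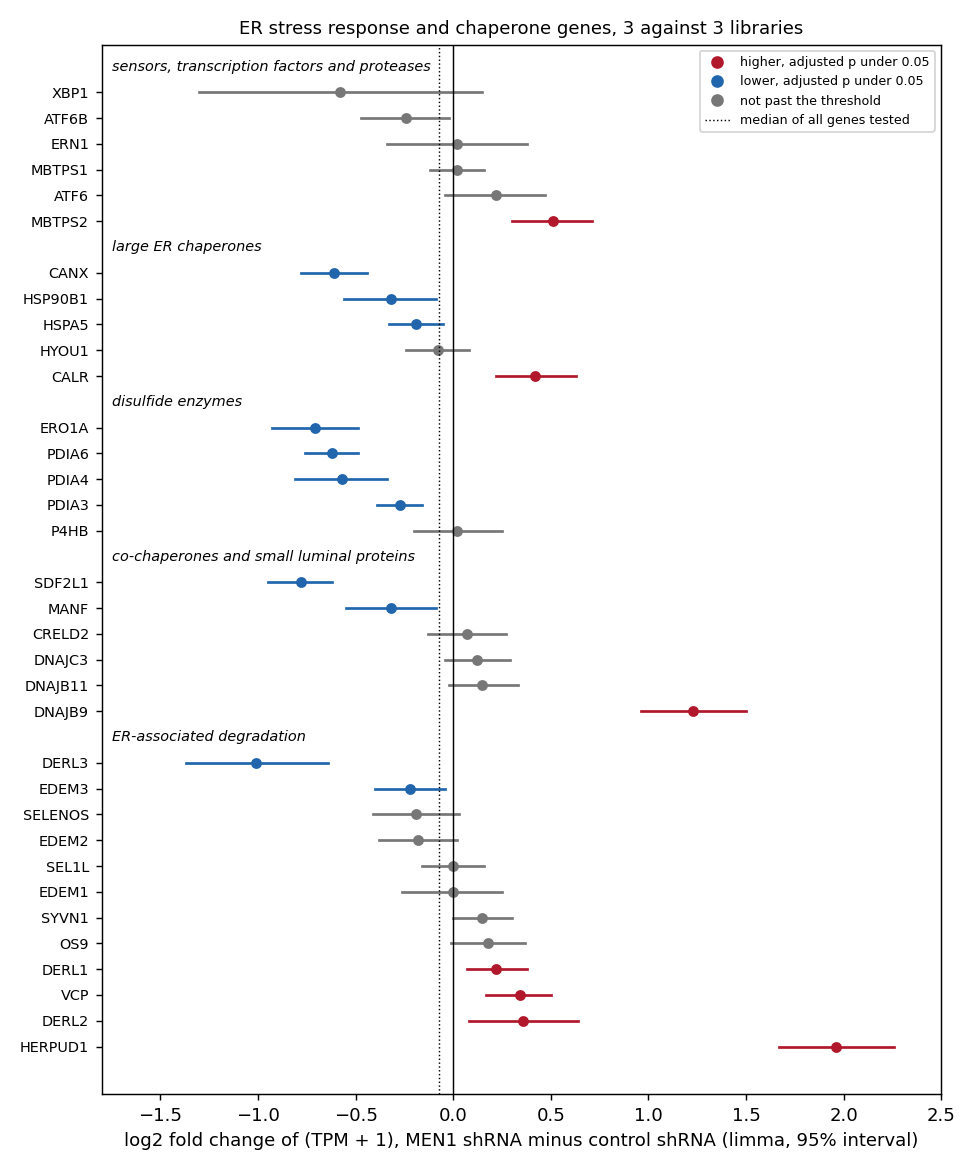
Log2 fold change of TPM + 1 (x axis, MEN1 shRNA minus control shRNA, 3 libraries each) for the 34 tested genes, grouped by role, with 95% intervals from limma; colour marks genes past an adjusted p of 0.05, and the dotted line is the median of all genes tested. HERPUD1 at 1.96 and DNAJB9 at 1.23 lie far to the right, DERL3 at -1.01 farthest to the left, and 4 of 5 tested disulfide enzymes lie below 0.

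The letters of the promoters were not read when the genes were chosen. The genes were chosen by their place in the ATF6 and XBP1 branch, among ER chaperones and in ERAD, so known targets are among them. ATF6 and XBP1 are known to act through the ER stress response element (ERSE), CCAAT and CCACG with 9 bases between them, and through ERSE-II, ATTGG and CCACG with 1 base between them. Both were searched on both strands in windows from 250 bases before to 50 bases after each gene's start, taken from RefSeq on GRCh38.p14. Only exact matches were counted, so a gene without a match may still hold a near copy. Windows were found for 32 of the 35 genes, all but DERL1, DERL3 and PDIA3. An ERSE was found in 8 of these 32 genes (25%) and in 25 of 27305 genes in the table (0.0916%), and an ERSE-II in 3 (9.38%) against 19 (0.0696%). These elements were worked out on promoters of known ER stress genes such as HSPA5, and the 35 genes were chosen as genes of that kind. Their matches, and the shares above, are therefore no independent observation. A match describes letters and shows no binding.

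The windows of HERPUD1 and SDF2L1 are shown whole because each holds an ERSE-II and the 2 genes moved in opposite directions. Capitals mark the ERSE-II, which reads in reverse in SDF2L1 and begins 117 bases before the start in HERPUD1 and 188 bases before it in SDF2L1. In HERPUD1 capitals also mark TTGCATCA, a core bound by ATF4 with C/EBP partners, which was added to the search after the window had been seen.
HERPUD1 (chr16:56931892-56932191, plus strand): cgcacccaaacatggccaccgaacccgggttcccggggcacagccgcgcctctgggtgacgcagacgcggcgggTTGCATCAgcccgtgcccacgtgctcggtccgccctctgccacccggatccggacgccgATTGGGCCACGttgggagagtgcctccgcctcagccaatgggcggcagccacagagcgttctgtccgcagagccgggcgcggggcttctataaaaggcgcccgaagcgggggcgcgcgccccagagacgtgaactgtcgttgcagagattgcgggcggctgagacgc
SDF2L1 (chr22:21642052-21642351, plus strand): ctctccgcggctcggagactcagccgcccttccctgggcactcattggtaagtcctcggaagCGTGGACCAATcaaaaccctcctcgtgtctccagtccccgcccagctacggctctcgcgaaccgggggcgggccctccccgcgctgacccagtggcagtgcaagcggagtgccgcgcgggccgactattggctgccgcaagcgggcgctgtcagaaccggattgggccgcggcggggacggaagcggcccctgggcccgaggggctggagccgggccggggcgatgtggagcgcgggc

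The third gene with ERSE-II, HYOU1, holds 2 copies, and the stretch around the copy nearer to the start is shown. The other stretches hold the ERSE of 7 tested genes, each with 20 bases on either side and the element in capitals, in the gene's own direction. The element reads in reverse in HYOU1, CALR and CRELD2. HSP90B1 holds 2 copies, of which the one farther from the start is shown.
HYOU1 (chr11:119057254-119057304, minus strand): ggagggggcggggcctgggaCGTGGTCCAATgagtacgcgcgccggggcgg
HSPA5 (chr9:125241371-125241429, minus strand): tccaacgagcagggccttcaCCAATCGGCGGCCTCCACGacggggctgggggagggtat
HSP90B1 (chr12:103930196-103930254, plus strand): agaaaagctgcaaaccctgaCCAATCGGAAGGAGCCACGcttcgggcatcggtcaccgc
CALR (chr19:12938364-12938422, plus strand): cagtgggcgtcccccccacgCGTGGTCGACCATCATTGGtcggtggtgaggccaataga
CANX (chr5:179698758-179698816, plus strand): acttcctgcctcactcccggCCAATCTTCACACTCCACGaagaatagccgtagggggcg
PDIA6 (chr2:10812833-10812891, minus strand): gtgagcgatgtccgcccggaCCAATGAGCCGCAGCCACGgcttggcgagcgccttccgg
CRELD2 (chr22:49918534-49918592, plus strand): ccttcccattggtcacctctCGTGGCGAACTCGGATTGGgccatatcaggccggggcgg
XBP1 (chr22:28800583-28800641, minus strand): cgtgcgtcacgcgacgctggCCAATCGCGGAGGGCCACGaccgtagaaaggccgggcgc

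Genes that share an element did not share a direction. Of the 10 tested genes with an ERSE or ERSE-II, CALR and HERPUD1 rose, CANX, HSP90B1, HSPA5, PDIA6 and SDF2L1 fell, and CRELD2, HYOU1 and XBP1 did not pass the test. Their log2 fold changes ran from -0.78 to 1.96 with a median of -0.26. The median was 0.02 for the 21 tested genes whose windows hold no exact match to either element. The 3 genes with ERSE-II were at 1.96 for HERPUD1, -0.08 for HYOU1 and -0.78 for SDF2L1. Among the other tested genes that hold either element, 7 rose, 5 fell and 5 did not pass, with a median of 0.01. TTGCATCA was found in HERPUD1 alone of the 32 genes (3.12%) and in 1.08% of all genes with a window. It was added to the search after the HERPUD1 window had been seen, so its match there is no independent observation.

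**Figure D2:**
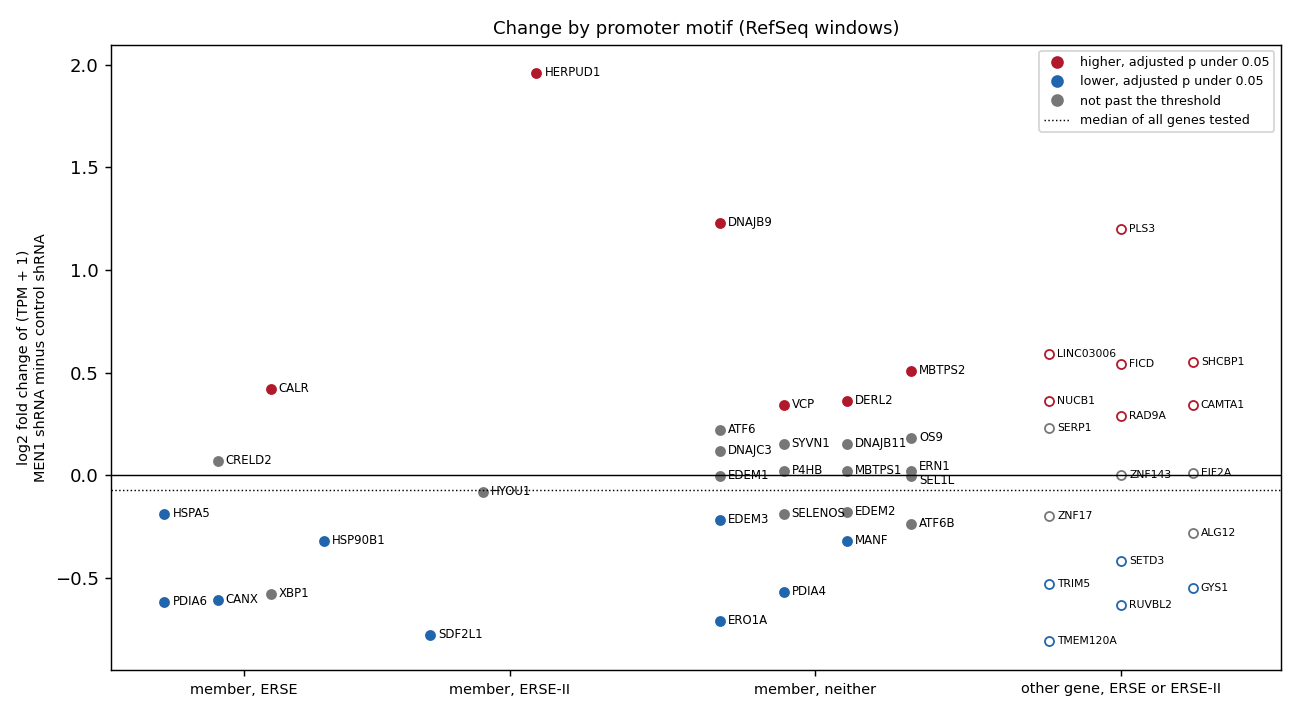
Log2 fold change of TPM + 1 (y axis, MEN1 shRNA minus control shRNA) of tested genes with a RefSeq promoter window, split by the element found there (x axis; horizontal spread within a column carries no value); filled points, named member on the axis, are among the 35 genes, open points are other genes with an element, and colour marks genes past an adjusted p of 0.05. Filled points of the ERSE column run from -0.62 for PDIA6 to 0.42 for CALR, and the 3 filled ERSE-II points run from -0.78 to 1.96.

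Among the 6 sensors, transcription factors and proteases, only MBTPS2 passed the test in the main analysis (16.7%, against 53.6% of all genes tested). With median-of-ratios scaling and with quantile normalization 2 of the 6 rose. MBTPS2 (chromosome X, 21839617 to 21885423), the intramembrane protease that makes the final cut of ATF6, was at 12.1, 11.6 and 12.5 TPM after knockdown and at 7.73, 8.66 and 8.27 TPM in the controls. All 3 knockdown libraries lay above the controls, by 0.51 on the log2 scale (SE 0.0884, adjusted p 0.00211). MBTPS1, the protease that makes the first cut, was at 50.4, 48.8 and 48.9 TPM against 46.3, 48.9 and 50.7 TPM, with overlapping groups (log2 fold change 0.02, 95% interval -0.12 to 0.16).

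ATF6, the sensor that becomes a transcription factor, was at 46.1, 36.5 and 45.2 TPM after knockdown and 34.9, 33.9 and 40.2 TPM in the controls. These groups overlapped (log2 fold change 0.22, adjusted p 0.13), and the gene passed the threshold with median-of-ratios scaling (0.31, adjusted p 0.0463), with quantile normalization and without MEN1 shRNA replicate 2 (0.32, adjusted p 0.0309). Its relative ATF6B was at 93.2, 81.2 and 73.9 TPM against 91.5, 106 and 96.1 TPM (log2 fold change -0.24, adjusted p 0.0684), and passed without MEN1 shRNA replicate 1 (-0.33, adjusted p 0.0157). The ATF6B row shares its end with TNXB on the same strand, at 2.7 to 6.16 TPM after knockdown and 18.1 to 18.5 TPM in the controls. ERN1, the IRE1 kinase and nuclease, was low, at 2.1, 2.16 and 1.96 TPM against 2.6, 1.72 and 1.85 TPM, and the interval of its log2 fold change ran from -0.34 to 0.38.

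XBP1 (chromosome 22, 28794555 to 28800597), whose spliced form encodes the active factor, varied most, relative to its mean, across the knockdown libraries among the 34 tested genes. It was at 31.2, 68 and 82.5 TPM in MEN1 shRNA replicates 1, 2 and 3 and at 83.2, 81.8 and 87.1 TPM in the controls. Replicate 1 was far below the other libraries, and replicate 3 lay within the control range. The log2 difference was -0.58 (SE 0.311, adjusted p 0.159), -0.16 without MEN1 shRNA replicate 1, and -0.85 without MEN1 shRNA replicate 3, where it passed the threshold (adjusted p 0.0463). The tables sum over isoforms, so spliced and unspliced XBP1 were not separated.

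**Figure D3:**
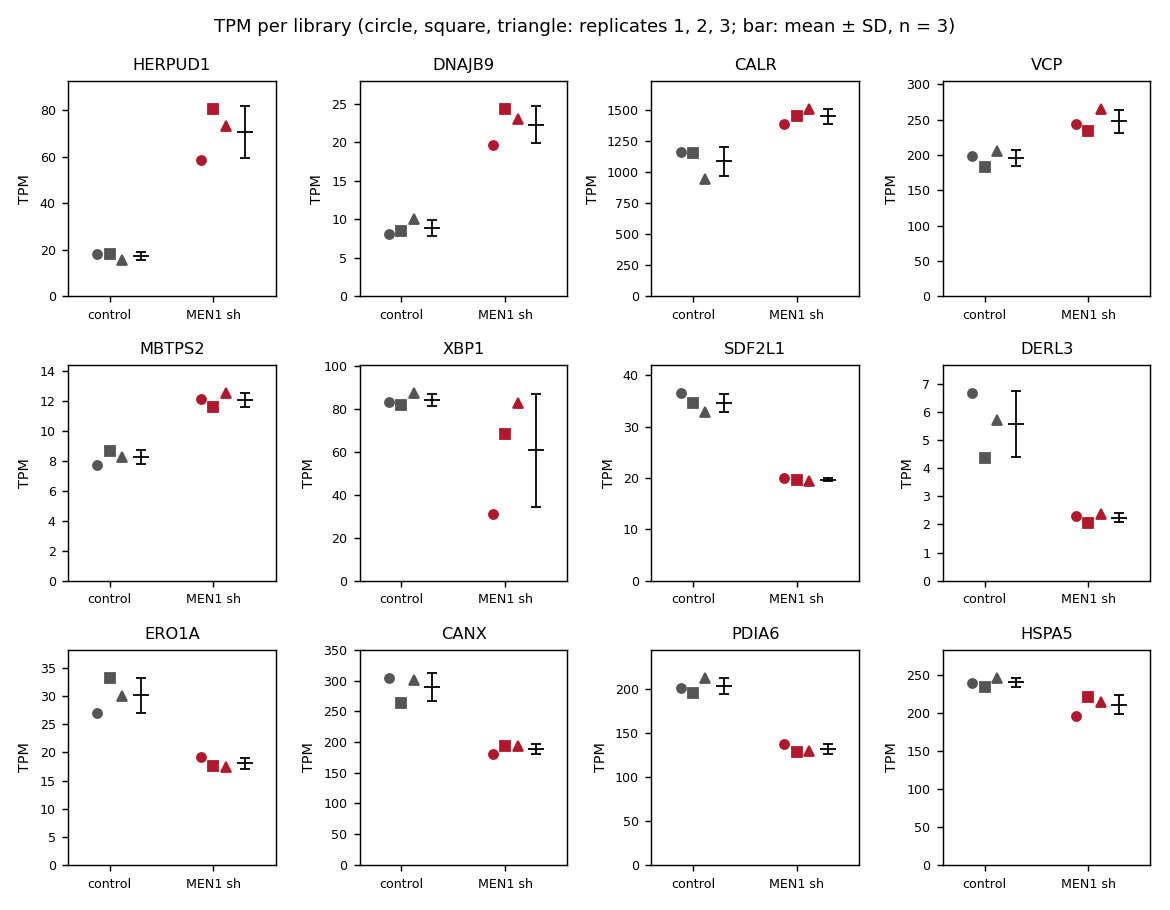
TPM (y axes, each from 0) of 12 of the genes in the 3 control and the 3 MEN1 shRNA libraries; circles, squares and triangles are replicates 1, 2 and 3, and the bar beside them is the mean ± SD. HERPUD1, DNAJB9, CALR, VCP and MBTPS2 show every knockdown library above every control, SDF2L1, DERL3, ERO1A, CANX, PDIA6 and HSPA5 the reverse, and XBP1 a wide spread after knockdown from 31.2 to 82.5 TPM.

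The 2 lectin chaperones, which hold glycoproteins for folding, moved apart. Soluble calreticulin, CALR (chromosome 19, 12938578 to 12944489), was at 1381, 1451 and 1504 TPM after knockdown and 1156, 1148 and 946 TPM in the controls. Every knockdown library exceeded every control, for a difference of 0.42 on the log2 scale (SE 0.0875, adjusted p 0.00482). Membrane-bound calnexin, CANX (chromosome 5, 179678628 to 179731641), was at 180, 194 and 194 TPM against 305, 263 and 301 TPM, again without overlap, at a log2 fold change of -0.61 (SE 0.0729, adjusted p 0.00035). The share of CALR in the TPM of all 35 genes was 35.6% to 35.8% after knockdown and 24.8% to 28.9% in the controls. The sum of all 35 was 4045 ± 174 TPM (SD, n = 3) against 3936 ± 104 TPM, and without CALR it was 2599 ± 113 against 2853 ± 29.3 TPM.

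HSPA5, the ER HSP70 that also holds the sensors inactive, was at 197, 222 and 215 TPM after knockdown and 240, 235 and 247 TPM in the controls. The groups did not overlap, but the difference was small (log2 fold change -0.19, SE 0.0609, adjusted p 0.0332). With median-of-ratios scaling it was -0.10 (adjusted p 0.232), and the call was lost when any library but MEN1 shRNA replicate 2 was left out, with adjusted p-values of 0.0567 to 0.0996. HSP90B1, the ER HSP90, was at 271, 340 and 358 TPM against 388, 403 and 413 TPM, a log2 fold change of -0.32 (adjusted p 0.0294) that was -0.20 without MEN1 shRNA replicate 1 and did not pass without any 1 of the controls (adjusted p 0.0541 to 0.0803). HYOU1, a large HSP70 relative that exchanges nucleotide on BiP, was at 71.4, 72.7 and 76.4 TPM against 74.4, 75.4 and 84 TPM, with overlap (log2 fold change -0.08, 95% interval -0.24 to 0.08).

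The disulfide enzymes fell in 4 of 5 tested cases and none rose, where 53.6% of all genes tested passed and 31.5% fell. The split was the same under all 4 other scalings and units tried, which all use the same 6 libraries. ERO1A (chromosome 14, 52639915 to 52695900), the oxidase that recharges the isomerases, was at 19.2, 17.5 and 17.4 TPM after knockdown and 27, 33.3 and 30.1 TPM in the controls. That is a log2 fold change of -0.71 (SE 0.0943, adjusted p 0.00058), and the groups were apart. PDIA6 (chromosome 2, 10783391 to 10837977) was at 138, 128 and 129 TPM against 201, 196 and 213 TPM, at -0.62 (SE 0.0594, adjusted p 0.00013). PDIA4 (chromosome 7, 149003062 to 149028662) was at 42.8, 34.3 and 35.4 TPM against 52.5, 61.1 and 55 TPM, at -0.57 (SE 0.101, adjusted p 0.00218).

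PDIA3, the isomerase that works with calnexin and calreticulin, was at 174, 173 and 172 TPM against 205, 211 and 212 TPM (log2 fold change -0.27, SE 0.0479, adjusted p 0.00211). It had a narrow spread in both groups and no overlap. Its processed copies PDIA3P1 and PDIA3P2 were at 1.41 to 6.65 TPM in every library. P4HB, the classical protein disulfide isomerase, did not pass the test, at 334, 354 and 352 TPM against 385, 351 and 294 TPM (log2 fold change 0.02, 95% interval -0.20 to 0.25). ERO1B, the second oxidase, was at 0.256 to 0.588 TPM after knockdown and 0.318 to 1.08 TPM in the controls, below the filter, and was not tested. The sum over the 6 disulfide enzymes was 705 to 709 TPM after knockdown and 805 to 871 TPM in the controls.

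Of the 6 co-chaperones and small luminal proteins 1 rose, 2 fell and 3 did not pass, so 50% passed, near the 53.6% of all genes tested. With median-of-ratios scaling 3 rose and 1 fell. DNAJB9 (chromosome 7, 108569867 to 108574850), the J-domain protein ERdj4 that loads BiP onto IRE1, was at 19.6, 24.3 and 23 TPM after knockdown and 8.15, 8.47 and 10.1 TPM in the controls. The lowest knockdown library was far above the highest control, with a log2 fold change of 1.23 (SE 0.116, adjusted p 0.00012). SDF2L1 (chromosome 22, 21642302 to 21644299), a partner of BiP and DNAJB11 and the gene with the reverse ERSE-II shown above, was at 20, 19.6 and 19.5 TPM against 36.5, 34.6 and 32.9 TPM. No value overlapped, and the log2 difference was -0.78 (SE 0.0695, adjusted p 9.7e-05). MANF, a secreted and luminal BiP cofactor, was at 40.2, 33.8 and 44.2 TPM against 50.2, 48.6 and 48.5 TPM (log2 fold change -0.32, adjusted p 0.0271). That call was lost with median-of-ratios scaling (-0.23, adjusted p 0.0767), and without MEN1 shRNA replicate 2 or any 1 of the controls.

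DNAJB11 (ERdj3), which hands unfolded clients to BiP, was at 84.3, 90.9 and 99.3 TPM against 80.7, 78.9 and 86.6 TPM, with overlap (log2 fold change 0.15, 95% interval -0.02 to 0.33), and passed with median-of-ratios scaling (0.24) and without MEN1 shRNA replicate 1 (0.21, adjusted p 0.0439). DNAJC3, the J-domain protein known as P58IPK, was at 17.5, 17.3 and 17.2 TPM against 15.6, 16 and 15.9 TPM. Its groups did not overlap, yet the log2 fold change of 0.12 missed the threshold (adjusted p 0.173), which it passed with median-of-ratios scaling (0.21). CRELD2, a luminal protein with an ERSE in its window, was at 13.7, 12.5 and 14.3 TPM against 13.1, 12.2 and 12.9 TPM (log2 fold change 0.07, 95% interval -0.13 to 0.27).

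Of the 12 ERAD genes 4 rose, 2 fell and 6 did not pass, so 50% passed, near the 53.6% of all genes tested. With median-of-ratios scaling 6 rose and 1 fell. HERPUD1 (chromosome 16, 56932142 to 56944864), the membrane protein that assembles the HRD1 ligase complex, was at 58.5, 80.5 and 73.4 TPM after knockdown and 18.1, 18.3 and 15.5 TPM in the controls. It had the largest log2 fold change of the 34 tested genes, 1.96 (SE 0.125, adjusted p 3.4e-05), which ran from 1.87 to 2.09 when each library was left out in turn. In order of level among the 35 it went from place 25 in the controls, where its mean was 17.3 ± 1.53 TPM, to place 14, at 70.8 ± 11.2 TPM (SD, n = 3 each). A row inside it on the same strand, ENSG00000261114, reached at most 1.92 TPM.

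The ligase core did not pass the test in the main analysis. SYVN1, the HRD1 ubiquitin ligase itself, was at 30.6, 31.9 and 29.9 TPM against 26.9, 27.8 and 28.2 TPM, apart in every library but by a log2 fold change of 0.15 (adjusted p 0.089), which became 0.23 (adjusted p 0.0169) with median-of-ratios scaling. Its row overlaps the end of the ribosomal protein gene FAU on the same strand, which was above 1000 TPM in every library. SEL1L, its scaffold, was at 22.8, 23.6 and 24.3 TPM against 23, 24.2 and 23.7 TPM, with an interval from -0.16 to 0.16. OS9, the lectin that brings glycoproteins to SEL1L, was at 85.7, 96.6 and 101 TPM against 78.3, 88.9 and 83 TPM (log2 fold change 0.18, adjusted p 0.104), and passed with that scaling (0.26, adjusted p 0.0175) and without MEN1 shRNA replicate 1 (0.25, adjusted p 0.0267).

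The derlins, rhomboid-like proteins of the exit channel, differed in direction. DERL1 was at 79.6, 84.6 and 74.5 TPM after knockdown against 69.8, 66.1 and 67.7 TPM, without overlap (log2 fold change 0.22, adjusted p 0.0219). Its call was lost without MEN1 shRNA replicate 2, control replicate 2 or control replicate 3, with adjusted p-values of 0.0591 to 0.0764. DERL2 was at 14.8, 18.9 and 19.3 TPM against 12.7, 12.8 and 14.9 TPM, where knockdown replicate 1 lay just below the highest control (log2 fold change 0.36, adjusted p 0.0381). That call was lost without MEN1 shRNA replicate 2 or 3 or control replicate 1 or 2, with adjusted p-values of 0.106 to 0.117. DERL3 (chromosome 22, 23834503 to 23839128), the derlin with the lowest level, was at 2.3, 2.05 and 2.38 TPM against 6.67, 4.35 and 5.71 TPM. It fell by 1.01 on the log2 scale (SE 0.158, adjusted p 0.00124), and the groups were apart. DERL3 overlaps SMARCB1 on the opposite strand, at 93.3 to 114 TPM, and whether reads were assigned by strand is not stated.

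VCP (chromosome 9, 35053928 to 35072668), the ATPase that pulls ERAD clients into the cytosol, was at 244, 234 and 265 TPM after knockdown and 198, 183 and 206 TPM in the controls. All 3 knockdown libraries were higher, at a log2 fold change of 0.34 (SE 0.0698, adjusted p 0.00472). SELENOS, the selenoprotein that binds VCP to the derlins, was at 22.1, 26.1 and 22 TPM against 25, 26.3 and 29.1 TPM (log2 fold change -0.19, adjusted p 0.135).

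Of the EDEM proteins, which trim or recognise mannose on glycoproteins bound for ERAD, EDEM3 was at 14.4, 13.5 and 13.8 TPM against 15.6, 17.1 and 16.4 TPM (log2 fold change -0.22, adjusted p 0.0436). This call was lost without any 1 library other than MEN1 shRNA replicate 1, and with median-of-ratios scaling (-0.14, adjusted p 0.144). EDEM2 was at 32.4, 26.6 and 28.5 TPM against 33.7, 32.5 and 33 TPM, with knockdown replicate 1 near the controls (log2 fold change -0.18, adjusted p 0.111), and passed without that library (-0.26, adjusted p 0.0193). EDEM1 was at 7.45, 9.4 and 8.43 TPM against 8, 8.97 and 8.28 TPM, so the groups covered the same range. Summed over the 12 ERAD genes, TPM was 615 to 663 after knockdown and 511 to 532 in the controls, to which VCP and HERPUD1 contributed most of the difference.

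The order of levels was led by the same genes in both groups. CALR was first in each, at means of 1445 and 1083 TPM. HSP90B1 and P4HB followed, at 323 ± 45.7 and 346 ± 10.8 TPM after knockdown and 402 ± 12.7 and 343 ± 46 TPM in the controls (SD, n = 3 each). Libraries of these neighbours overlapped after knockdown, and in the controls the lowest HSP90B1 value, 388 TPM, was just above the highest P4HB value, 385 TPM. VCP went from place 8 to place 4, above HSPA5 and CANX. ERN1 and ERO1B were lowest in both groups.

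In the list named for the PERK-ATF4 branch most tested genes rose. Of its 12 genes 11 were tested, and 7 rose, 0 fell and 4 did not pass, with a median log2 fold change of 0.65. The share past the threshold was 63.6%, against 53.6% of all genes tested, of which 22.1% rose. With median-of-ratios scaling 8 rose and 0 fell. ATF4, the transcription factor of the branch, was at 634, 715 and 713 TPM against 484, 464 and 513 TPM (log2 fold change 0.50, adjusted p 0.00069). Its targets DDIT3 (CHOP) and ASNS (asparagine synthetase) were at 1.21 and 0.59, with adjusted p-values of 0.00142 and 0.00035. EIF2AK3, the PERK kinase, was named after its value was seen, at 5.97, 4.58 and 4.53 TPM against 5.68, 6.27 and 6.04 TPM. Its log2 fold change was -0.22 (adjusted p 0.177), and -0.33 without MEN1 shRNA replicate 1, where it passed the threshold (adjusted p 0.0419). The activity of PERK was not measured, and the source of the rises in this list was not tested.

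The other ER-bound transcription factors and sensors held 3 rises and 4 falls among 10 tested (70% past the threshold, against 53.6% of all genes tested). CREB3L1, an ER-tethered factor cut like ATF6, had a mean of 16.3 ± 0.941 TPM in the controls and 3.9 ± 0.301 TPM after knockdown (SD, n = 3 each), a log2 difference of -1.82 with an adjusted p of 2.4e-05. CREB3L3 rose from 0.344 ± 0.0881 to 4.59 ± 1.39 TPM (2.03, adjusted p 0.00019), and CREB3L4 fell from 17.3 ± 0.578 to 10.8 ± 0.547 TPM (-0.64, adjusted p 0.00045). CREB3L3 was below 1 TPM in all controls and met the filter only through the knockdown libraries, where it was high. Its log2 fold change was 1.42 with FPKM and 3.37 with a pseudocount of 0.1, and a filter on a mean TPM of 5 left it out.

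Among genes that bring proteins into the ER, fold them there or attach and trim N-glycans, more fell than rose, where 31.5% of all genes tested fell and 22.1% rose. Of 25 translocon and signal peptidase genes 13 fell and 2 rose (10 and 2 with median-of-ratios scaling), with the translocon-associated subunits SSR1 and SSR3 at log2 fold changes of -1.93 and -1.52 and TRAM2 at -1.39. Of 12 calnexin cycle genes 8 fell and 1 rose: the lectin MLEC (-1.33) and the glucosidase subunit GANAB (-0.65) fell, and the mannosidase MAN1A1 rose (1.11). Of 11 tested oligosaccharyltransferase genes 5 fell and 1 rose, with RPN1 at -0.57, DAD1 at -1.20 and MAGT1 at -0.44, and with median-of-ratios scaling 3 fell and 2 rose. Of 32 tested other folding factors 15 fell and 3 rose, among the falls TXNDC12 (-1.45), PDIA2 (-1.62) and TMX4 (-1.04), and with median-of-ratios scaling 13 fell and 5 rose. The medians of these lists were -0.20, -0.46, -0.19 and -0.25, against -0.07 over all genes, and the adjusted p-values of the genes named lay between 2.5e-05 and 0.0015.

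Lists of later steps held different counts of rises and falls, and differences between lists were not tested. Among COPII coat genes more fell than rose, as over all genes tested, where 31.5% fell and 22.1% rose. Past the threshold were 69% of the other ERAD factors, 70% of the ER membrane complex and 53.3% of the COPII coat genes. The shares were 46.7% for ER-phagy and reticulons and 77.3% for KDEL receptors and calcium handling, against 53.6% of all genes. Of 42 tested other ERAD factors 16 rose and 13 fell (19 and 8 with median-of-ratios scaling), with SEL1L3 at 1.62 and the glycan-removing NGLY1 at -0.79. Of 10 ER membrane complex genes 5 rose and 2 fell, with MMGT1 at 0.68, EMC10 at 0.61 and EMC1 at -0.92. Of 15 COPII coat genes, which carry cargo out of the ER, 1 rose and 7 fell (2 and 5 with that scaling), with SAR1B at 1.09, PREB at -0.64 and SEC23IP at -0.33. Of 15 ER-phagy and reticulon genes 4 rose and 3 fell (6 and 2 with that scaling), with UFL1 at 0.41, UFM1 at -0.38 and TEX264 at -0.85. The 22 tested genes of KDEL receptors and ER calcium handling held 9 rises and 8 falls, with the calcium sensors STIM2 at 1.55 and STIM1 at -0.57 and the calcium-binding NUCB2 at -0.89. Adjusted p-values of the genes named here lay between 3.2e-05 and 0.00346. Over the 11 lists 130 of 205 tested genes (63.4%) passed, against 53.6% of all genes, 52 higher and 78 lower, and with median-of-ratios scaling the split was 63 and 63.

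The 3 KDEL receptors, which return escaped chaperones from the Golgi to the ER, were named after their values were seen. KDELR1 was at 164, 175 and 172 TPM after knockdown and 52.9, 99.3 and 91.2 TPM in the controls, with control replicate 1 well below the other 2 (log2 fold change 1.11, adjusted p 0.00316). KDELR2 was at 75.7, 84.5 and 84.7 TPM against 55.8, 55.1 and 56.6 TPM (0.54, adjusted p 0.00035), and KDELR3 at 12.3, 11.7 and 11.1 TPM against 5.03, 7.55 and 6.6 TPM (0.80, adjusted p 0.00212). All 3 passed the threshold under the 4 other scalings and units tried.

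**Figure D4:**
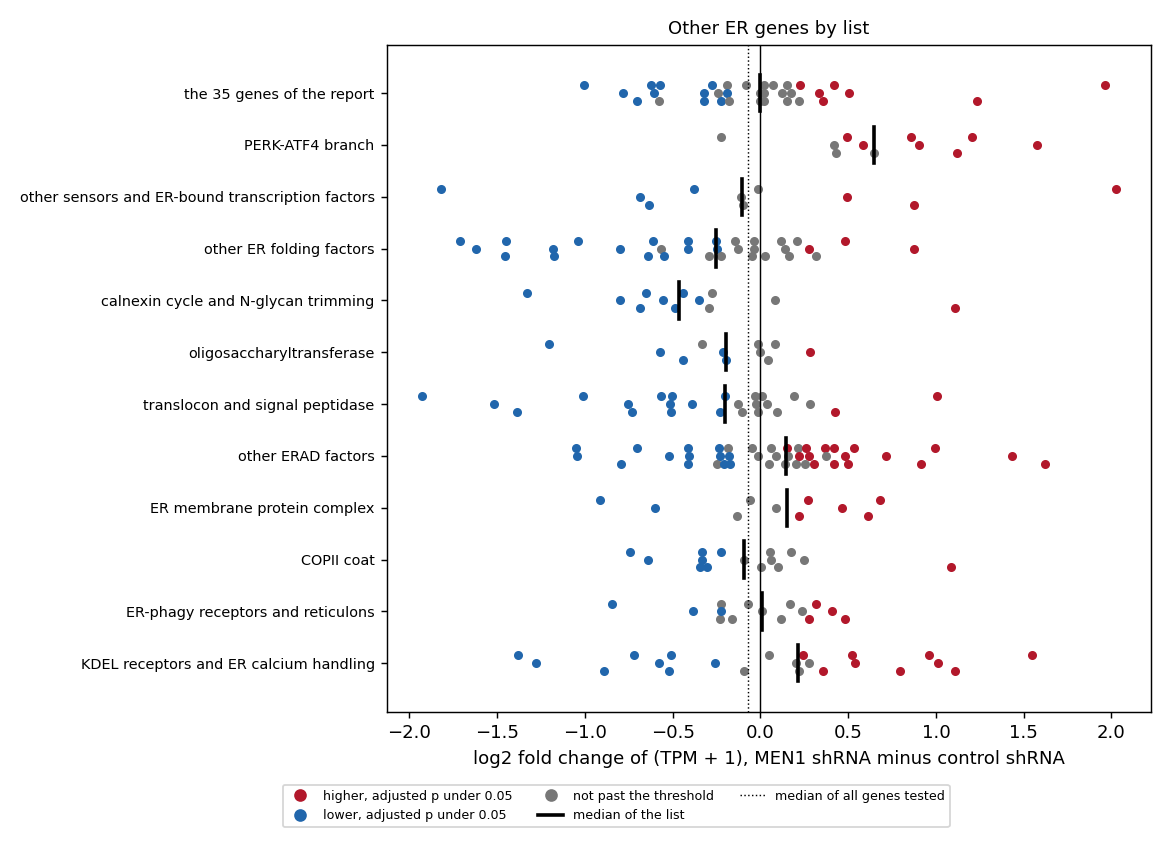
Log2 fold change of TPM + 1 (x axis, MEN1 shRNA minus control shRNA) of the 35 genes and of 11 lists of other ER genes (rows; vertical spread within a row carries no value), with colour for genes past an adjusted p of 0.05, a bar at each list's median and a dotted line at the median of all genes tested. The PERK-ATF4 list has a median of 0.65 with no fall past the threshold, and the calnexin cycle list a median of -0.46 with 1 rise.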

How the data were processed

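Poly(A) RNA was made into strand-specific libraries, per the labels' protocols. Each of the 6 libraries has 1 deposited gene table. The submitters' processing notes name FastQC, Trimmomatic, STAR 2.7.1a, Picard 2.20.4, StringTie 2.0.4 and hg38. Nothing used here states the annotation release or the strand setting. The deposited TPM and FPKM values were scaled by the authors for length and depth. The deposited coverage is mean read coverage per base, not scaled for depth. Of these values 3 lay just below 0 and were set to 0. Because TPM sums to a constant, higher globin values push other genes down. Of 58261 gene identifiers shared with GENCODE v29 (GRCh38), 99.91% overlap their position there, all 35 genes included.

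No read counts were used. Aligned bases were taken from the ratio of coverage to FPKM in genes with 1 transcript, which was the same within 0.1% in 94.9% to 95.4% of such genes. Genes that reached 1 TPM in 3 or more libraries were fitted as log2(TPM + 1), which understates changes of low genes, with limma 3.58.1 in R 4.3.3 (eBayes with trend, 2-sided, Benjamini-Hochberg over all 14294 genes). The fit and the motif search were tested on simulated data. Motifs, sums and figures used Python 3.11.15, pandas 2.3.3, NumPy 2.4.6 and matplotlib 3.10.9. Alternatives were other pseudocounts, filters, units, scalings, variance models, a fold threshold, a replicate block and each library left out.

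The 35 genes and the lists were chosen with earlier results of these data known, so no p is given for a list. From each list the text names up to 3 called genes, taken by the smallest adjusted p; genes named otherwise are marked, and 1 gene that this rule names is not reported here. A planned list of proteins with a KDEL-type ending was not analysed here.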

Additional observations from a re-analysis of the deposited data

How the results depend on the processing

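With 3 libraries a group, ERO1B (coverage of 0.111 to 0.81 reads per base) was too low to compare. Of 576 comparisons of single ER genes with an alternative, 473 kept direction and side of the threshold, 60 lost the call, 22 gained it and 21 changed sign, all in genes that did not pass in the main fit. Counts of genes past the threshold moved by over 1.5 times in several settings, apart from left-out libraries. Lower calls among the 35 genes were 7 without the filter, with median-of-ratios scaling and without globin and mitochondrial genes. Higher calls were 12 with median-of-ratios scaling and with quantile normalization. A limma test against a log2 fold change of 0.5 left 4 of the 35 genes, 2 higher and 2 lower, 34 genes of the 11 lists and 2126 of all genes, by its construction. The median of the 35 genes moved from -0.003 to 0.025 with FPKM, 0.077 with median-of-ratios scaling, 0.06 when globin and mitochondrial genes were left out and 0.013 with quantile normalization, settings that moved the median of all genes from -0.070 to -0.036, 0.008, -0.012 and -0.005. The cause of the other moves was not tested.

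With 1 library left out at a time there were 12 to 21 calls among the 35 genes, 5 to 9 higher and 7 to 12 lower (7 without each of the 3 control libraries), a median of -0.039 to 0.010, 109 to 135 list genes and 6577 to 7542 of all genes. Signs changed for SEL1L (-0.02 to 0.02), EDEM1 (-0.08 to 0.07), ERN1 (-0.06 to 0.14), MBTPS1 (-0.01 to 0.05) and P4HB (-0.09 to 0.11). SEL1L was at 0.03 with FPKM, 0.08 with median-of-ratios scaling, 0.06 without globin and mitochondrial transcripts, 0.13 with quantile normalization and 0.0018 with array weights. EDEM1 was at 0.02, 0.08, 0.06, 0.11 and 0.04 in the same settings. HYOU1 was at 0.01 with median-of-ratios scaling and 7.3e-05 with quantile normalization.

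Deviations from the group means were correlated at 0.0171, -0.0265 and -0.0124 between libraries of the same replicate number, so the numbers were not taken to pair the libraries. With the replicate block 15 of the 35 genes passed, 6 higher and 9 lower, with 120 list genes and 7012 of all genes.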
